A study of Mus musculus with 5 samples.

Results

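The genes described here encode the proteasome, the protease complex that degrades ubiquitin-tagged proteins, together with its activators, its inhibitor and the chaperones that assemble it. They were taken as the genes whose platform symbol begins with Psm, a letter from a to g and a digit. The interferon-induced Psmb8, Psmb9 and Psmb10 were left out. This gave 46 of 18466 named genes, measured by 52 probes. Messenger RNA was measured in back skin of a hairless albino mouse strain, with 1 one-colour oligonucleotide array in each of 5 groups. The groups were Xpa mutant skin 3 h after 1 kJ per square metre of ultraviolet B light (UVB), Xpa mutant skin 24 h after it, and WT skin without UVB, 3 h after and 24 h after the same dose. Xpa encodes a damage-recognition protein of nucleotide excision repair. The sources used here give neither the mutant allele nor the number of mice behind an array. An unirradiated Xpa mutant was not analysed here.

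With 1 array a group no test was possible. Every difference below compares 2 arrays, not 2 conditions, and carries no p-value. Levels are log2 normalized intensity. A gene was compared where at least 1 of the 2 arrays read it above background by the scanner's own low-signal flag, and it was counted as higher or lower from a 1.5-fold difference of the measured values. Counts, medians and ranges thus include values below background, which give only a bound. For the proteasome genes, the counts over genes above background on both arrays stand beside them. For the other lists such counts are not given. Within an array, the spots of a spike-in control probe varied by an SD of 0.13 (log2, median over probes), a figure that covers spot noise and leaves out variation between mice.

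Between 8148 and 8725 gene probes per array were above background, and the arrays correlated with each other at 0.89 to 0.97. The Xpa probe itself read 6.64 and 6.42 in Xpa mutant skin at 3 h and 24 h, below background on both arrays, against 7.49, 7.13 and 7.55 in WT skin without UVB, at 3 h and at 24 h. In WT skin it was above background without UVB and at 24 h but not at 3 h. Skin identity was checked on markers. All 6 keratinocyte and all 6 fibroblast markers were above background on all 5 arrays, and so were all 10 skeletal muscle markers, so the samples held muscle RNA too. All 4 melanocyte markers were below background on all 5 arrays.

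The proteasome is a barrel of stacked rings closed at its ends by regulatory caps. The outer rings are built of alpha subunits (Psma genes), which gate the entry. The inner rings are built of beta subunits (Psmb genes), of which Psmb5, Psmb6 and Psmb7 carry the chymotrypsin-like, caspase-like and trypsin-like cutting sites. The regulatory cap has a base with a ring of ATPases (Psmc genes) that unfold substrates, and a lid of Psmd subunits that includes the deubiquitinase Psmd14. When proteasome activity is blocked, mammalian cells raise the transcription of most subunit genes together through NRF1, the product of Nfe2l1. NRF1 binds antioxidant response elements in their promoters. In skin, keratinocytes depend on the proteasome to turn over regulators of the cell cycle, of stress responses and of differentiation.

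The promoters were read for that element, and for the CCAAT box, because both are described in promoters of proteasome genes. RefSeq promoter windows (GRCm38.p6) of 300 bases, from 250 before to 50 after the start of a gene, were found for 38 of the 46 genes, in 42 windows. The core of the element, TGACNNNGC on either strand, was in 5 of the 42 windows (11.9%), against 12.4% of 32851 windows of all genes. The CCAAT box was in 15 of the 42 (35.7%), against 37.4% of all windows, and the 2 motifs overlapped in 0 windows. Neither motif was found at a higher share than in promoters at large. Psmb5, Psmb6 and Psmd9 held the first motif nearest to the start, and their 250 bases before the start are shown with it in capitals. Psmb5 is at chr14:54617996-54618245 on the minus strand, Psmb6 at chr11:70525107-70525356 on the plus strand and Psmd9 at chr5:123227940-123228189 on the plus strand.
Psmb5: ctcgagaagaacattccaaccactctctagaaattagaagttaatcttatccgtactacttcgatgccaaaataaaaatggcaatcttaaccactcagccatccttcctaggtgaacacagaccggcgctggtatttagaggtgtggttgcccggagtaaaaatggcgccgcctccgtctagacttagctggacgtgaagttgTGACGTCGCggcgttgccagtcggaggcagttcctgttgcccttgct
Psmb6: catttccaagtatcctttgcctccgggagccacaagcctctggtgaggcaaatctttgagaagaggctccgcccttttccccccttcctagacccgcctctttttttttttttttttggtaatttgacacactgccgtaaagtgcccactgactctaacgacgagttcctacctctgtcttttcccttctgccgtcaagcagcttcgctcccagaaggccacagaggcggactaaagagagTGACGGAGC
Psmd9: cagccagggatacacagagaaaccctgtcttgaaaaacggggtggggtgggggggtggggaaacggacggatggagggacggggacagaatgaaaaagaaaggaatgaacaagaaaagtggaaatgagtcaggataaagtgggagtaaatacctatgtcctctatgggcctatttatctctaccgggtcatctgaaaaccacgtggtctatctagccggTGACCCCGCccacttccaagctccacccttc
The first base of the motif lay at position -47 in Psmb5, -9 in Psmb6 and -31 in Psmd9, counted from the start. Psmc6 and Psmd12 held it on the other strand at -227 and -247. A match of letters is a description and no evidence of binding.

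Of the 46 genes, 38 were above background on all 5 arrays. Psmg4 was above background on both 24 h arrays only. Psmd9 was above background on both 24 h arrays and in Xpa mutant skin at 3 h, and Psmd5 on both 24 h arrays and in WT skin without UVB. The other 5 were below background on all 5 arrays. They were Psma8, an alpha subunit of the testis, Psmb11, a beta subunit of the thymus, the inhibitor Psmf1, and Psmc3ip and Psme3ip1. The last pair share the spelling of the symbol but are named for binding a proteasome protein and are no subunits. None of the 5 enters a comparison below, except where the filter on dim genes is lifted as an alternative.

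The median log2 level of the 38 genes was 9.28 and 9.49 in Xpa mutant skin at 3 h and 24 h, and 9.11, 9.24 and 9.59 in WT skin without UVB, at 3 h and at 24 h. All named genes above background on all 5 arrays had medians of 8.26 to 8.29, which the quantile scaling holds nearly equal between arrays. Summed on the linear scale, the 38 genes gave 28013 and 31219 intensity units in Xpa mutant skin at 3 h and 24 h. In WT skin they gave 25173 without UVB, 25866 at 3 h and 32908 at 24 h. The highest of the 5 arrays was WT skin at 24 h for 26 of the 38 genes, Xpa mutant skin at 24 h for 10, Xpa mutant skin at 3 h for 2, and an array of WT skin without UVB or at 3 h for 0. The lowest was WT skin without UVB for 22, WT skin at 3 h for 10, Xpa mutant skin at 3 h for 4 and Xpa mutant skin at 24 h for 2.

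**Figure D1:**
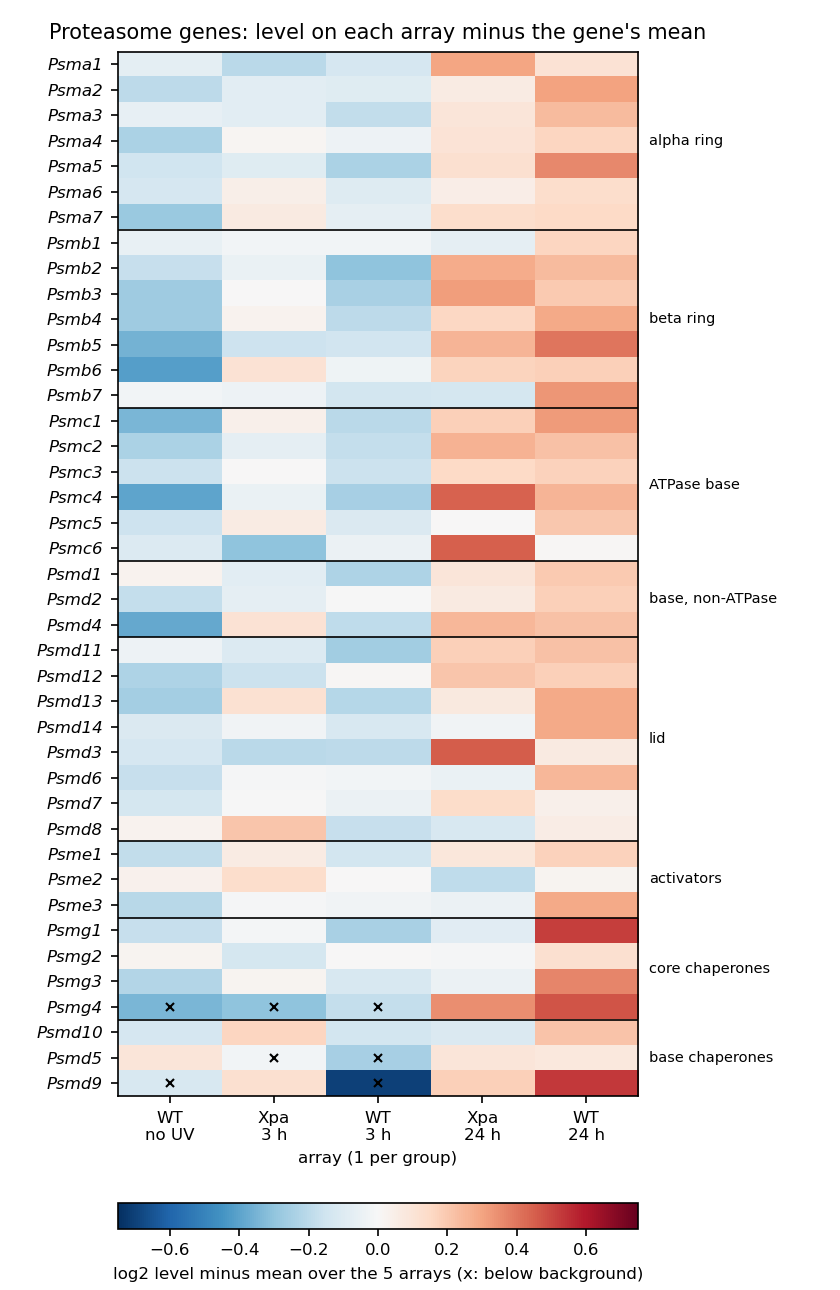
Log2 level of each of 41 proteasome genes on each array (columns) minus the mean of that gene over the 5 arrays, with genes grouped by role in rows and a cross where the array was below background. The column of WT skin at 24 h holds the highest value for 26 of the 38 genes above background on all 5 arrays, and the column of WT skin without UVB the lowest for 22.

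Among the 38 genes above background on all 5 arrays, the range over the arrays was largest for Psmc4, an ATPase of the base. Psmc4 read 9.96 and 10.45 in Xpa mutant skin at 3 h and 24 h, and 9.61, 9.76 and 10.26 in WT skin without UVB, at 3 h and at 24 h, a range of 0.84. Both 24 h arrays were above all 3 others. A dimmer probe of Psmc4 was below background on all 5 arrays. Psmg1, a chaperone that helps to build the alpha ring, read 7.66 and 7.59 in Xpa mutant skin at 3 h and 24 h, and 7.50, 7.43 and 8.19 in WT skin without UVB, at 3 h and at 24 h. Only WT skin at 24 h stood apart there. Psmb5, the chymotrypsin-like subunit and the main target of proteasome inhibitor drugs, read 9.21 and 9.62 in Xpa mutant skin at 3 h and 24 h, and 9.01, 9.22 and 9.77 in WT skin without UVB, at 3 h and at 24 h. It was highest on the 24 h arrays of both genotypes. The smallest range, 0.23, was that of the beta subunit Psmb1, which read 10.73 and 10.68 in Xpa mutant skin at 3 h and 24 h, and 10.69, 10.73 and 10.91 in WT skin without UVB, at 3 h and at 24 h. Psmg2, the partner of Psmg1, had a range of 0.25, and the lid subunit Psmd7 one of 0.27.

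In WT skin 24 h after UVB, most proteasome genes read higher than in unirradiated WT skin, each by less than 2-fold. Of 41 genes compared, 39 were above 0 on the log2 scale, against 50.2% of all 7267 named genes compared. Their median difference was 0.40 with a range of -0.02 to 0.81, against a median of 0.00 for all genes. The core chaperone Psmg1 and the catalytic subunit Psmb5 were among the largest. At 1.5-fold, 9 genes were higher and 0 lower, against 8.42% of all genes higher and 8.77% lower. Of these 9, 7 were above background on both arrays, and under that filter 277 of 5572 named genes were higher. At 2-fold the counts were 0 and 0, against 2.45% and 2.22% of all genes. With arrays centred on the spike-in probes the median was 0.61 and 22 genes were 1.5-fold higher, but all genes then stood at 0.18. The robust SD of the differences was 0.21 for the proteasome genes and 0.39 for all genes. It was 0.18 for ribosomal protein genes and 0.19 for respiratory chain genes. The proteasome genes and all genes were not matched for level. In WT skin without UVB, genes above background on all 5 arrays had a median of 9.11 in the proteasome set and 8.28 in all. The part of level in the spread was not tested. More cells of a type and more RNA per cell cannot be told apart in bulk skin.

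Every core subunit compared read higher. All 7 alpha subunits were above 0, with a median of 0.40. Psma5 differed most, with 10.01 in WT skin at 24 h and 9.50 in WT skin without UVB, and Psma1 least, with 9.13 and 8.95. All 7 beta subunits were above 0, with a median of 0.46, and 2 passed 1.5-fold. Psmb5 was 1.69-fold higher (log2 0.75) by the levels given above. Psmb6, the caspase-like subunit, read 9.53, 9.91 and 10.12 in WT skin without UVB, at 3 h and at 24 h, so its difference at 24 h (log2 0.59) sits at the 1.5-fold threshold. Psmb7, the trypsin-like subunit, read 9.28, 9.16 and 9.63 on the same 3 arrays. All 3 catalytic subunits were thus highest at 24 h among the WT arrays. Psmb4, a structural beta subunit, had 2 probes above background on all 5 arrays, and they differed. The brighter gave 0.55 and the other 0.20.

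Among the 6 ATPases the median was 0.41, with all 6 above 0 and 2 past 1.5-fold. Psmc1 read 9.18 in WT skin at 24 h and 8.52 in WT skin without UVB, a 1.57-fold difference (log2 0.65). Psmc4 was also 1.57-fold higher (log2 0.65). Psmc6 differed least, with 9.0 and 8.89 in the same order. The base subunits without ATPase activity had a median of 0.36, with all 3 above 0. The ubiquitin receptor Psmd4 read 10.15 in WT skin at 24 h and 9.55 in WT skin without UVB, 1.51-fold higher (log2 0.60), and the scaffold subunit Psmd1 10.70 and 10.53. All 8 lid subunits were above 0, with a median of 0.33 and 0 past 1.5-fold. Psmd13 differed most (9.74 in WT skin at 24 h and 9.20 without UVB) and Psmd8 least (9.03 and 9.0). The lid deubiquitinase Psmd14, which removes the ubiquitin chain before a substrate enters, read 9.20 in WT skin at 24 h and 8.81 in WT skin without UVB.

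The core assembly chaperones had the highest median of the role groups, 0.64, with all 4 above 0 and 3 past 1.5-fold. Psmg1 was 1.61-fold higher (log2 0.69). Psmg3 read 8.33 in WT skin at 24 h and 7.74 in WT skin without UVB, 1.51-fold higher (log2 0.60). Psmg4 read 7.61 in WT skin at 24 h, and 6.80 and below background in WT skin without UVB, so it was at least 1.52-fold higher. Psmg2 read 7.82 and 7.72 in the same order. This group has 4 genes, 1 of them above background on a single side, and the order of the role groups is a description only. The base assembly chaperones had a median of 0.33. Psmd9 read 7.79 in WT skin at 24 h, and 7.14 and below background in WT skin without UVB, at least 1.57-fold higher. Psmd10, also known as gankyrin, read 7.93 and 7.59, and Psmd5 7.39 and 7.40. The activator Psme3, which caps nuclear proteasomes, read 8.17 in WT skin at 24 h and 7.68 in WT skin without UVB. Psme2, an interferon-induced activator subunit, read 9.01 and 9.02.

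Markers of the cell types in skin moved with these comparisons, as read from their summed intensity. The 4 stress keratins summed to 6429 and 13390 in Xpa mutant skin at 3 h and 24 h, and to 3236, 9312 and 34660 in WT skin without UVB, at 3 h and at 24 h. The 10 muscle markers summed to 72500 and 42030 in Xpa mutant skin at 3 h and 24 h, and to 69010, 59810 and 40730 in WT skin without UVB, at 3 h and at 24 h. The 6 fibroblast markers summed to 11770 and 19700 in Xpa mutant skin and to 25160, 12490 and 10460 in WT skin in that order. As sums, stress keratins were thus highest and fibroblast markers lowest on the array of WT skin at 24 h. Most proteasome genes were highest on that array too. Of the fibroblast markers, Col1a1, Col1a2, Col3a1 and Dcn were each lowest there, and Lum and Pdgfra were not. Lum read 9.14 there and 8.96 in WT skin at 3 h. Pdgfra read 8.78 there and 8.51 in WT skin without UVB. The 6 keratinocyte markers summed to 44700 and 26420 in Xpa mutant skin, and to 53440, 40580 and 34510 in WT skin. Unlike that sum, Krt14 was highest in WT skin at 24 h (13.37, and 12.61 in WT skin without UVB). Of the immune markers, 5 macrophage markers summed to 1863 and 2920 in Xpa mutant skin and to 1208, 1816 and 2704 in WT skin. The 5 neutrophil markers summed to 527.8 and 3442 in Xpa mutant skin and to 372.3, 615.1 and 1591 in WT skin. 3 of them, Mpo, Elane and Cxcr2, were below background on all 5 arrays, so measured values come from S100a8 and S100a9 alone. S100a8 was 12.7-fold higher in Xpa mutant skin at 24 h than at 3 h, and S100a9 at least 9.28-fold. Between these 2 arrays Mpo, Elane and Cxcr2 read lower (log2 -0.48, -0.50 and -0.66), below background on both. The 6 hair follicle markers summed to 5623 and 1947 in Xpa mutant skin, and to 741.9, 2074 and 962.1 in WT skin, highest in the mutant at 3 h. The 4 sebaceous gland markers summed to 1508 and 1039 in Xpa mutant skin, and to 1533, 1354 and 2197 in WT skin. In WT skin at 24 h against no UVB, Elovl3 and Soat1 were higher (log2 0.93 and 0.51). Scd1 and Mgst1 differed little there (-0.06 and 0.07). The 5 adipocyte markers summed to 8733 and 7973 in Xpa mutant skin, and to 8374, 7191 and 5758 in WT skin. Their members did not move alike. From 3 h to 24 h in Xpa mutant skin, Fabp4 read higher (log2 0.17). Adipoq, Cidec and Pck1 read lower (-0.91, -0.46 and -1.52), Pck1 from above to below background. Lep was below background on all 5 arrays. Of 5 T cell markers 4 were below background on all 5 arrays, and of 4 endothelial markers 2 were. The part of these shifts in the proteasome values was not tested.

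**Figure D2:**
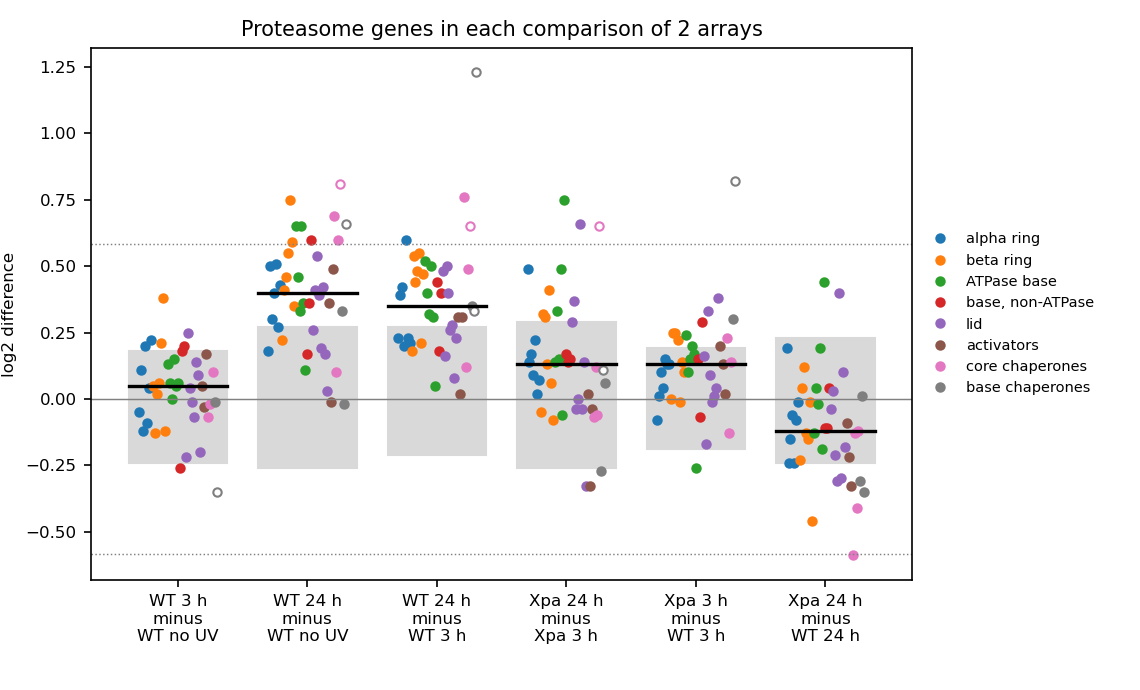
Log2 difference of each proteasome gene (points, coloured by role, open where 1 of the 2 arrays was below background) in 6 comparisons, with the median of the genes (black line), the interquartile range of all named genes (grey box) and 1.5-fold (dotted lines). The genes lie mostly above 0 in WT skin at 24 h against both earlier WT arrays (medians 0.40 and 0.35) and mostly below 0 in Xpa mutant against WT skin at 24 h (median -0.12).

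At 3 h after UVB, WT skin differed little from unirradiated WT skin in these genes. The median over 39 genes was 0.05, with 24 above 0, a range of -0.35 to 0.38, and -0.03 for all genes. Centring the arrays on the spike-in probes put the median at -0.02. At 1.5-fold, 0 were higher and 0 lower, against 6.58% and 6.35% of all genes. With both arrays above background, 0 of 38 were higher and 0 lower, against 176 and 115 of 5512 named genes. Psmb6 differed most (0.38), followed among the largest of each role by Psmd12 of the lid (0.25), Psma7 of the alpha ring (0.22) and Psmd4 (0.20). The scaffold subunit Psmd1 was lower (-0.26), with 10.27 in WT skin at 3 h and 10.53 in WT skin without UVB, and so was Psmd5 (-0.35), with 7.06 and below background at 3 h and 7.40 without UVB. By the median, the higher levels in WT skin were thus read at 24 h and not at 3 h. Single genes departed from this, such as Psmb6 (0.38 at 3 h and 0.59 at 24 h) and Psmd12 (0.25 and 0.41).

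Set against 3 h, the 24 h array of WT skin was higher for all 41 genes compared (52.8% of all genes), with a median of 0.35, a range of 0.02 to 1.23 and 0.03 for all genes. This comparison shares the 24 h array with the one against unirradiated skin, so the 2 are not independent. Spike-in centring gave 0.65, and 0.31 for all genes. At 1.5-fold, 4 genes were higher and 0 lower, against 8.62% and 7.82% of all genes. Psma5 read 10.01 in WT skin at 24 h and 9.41 at 3 h, 1.51-fold higher (log2 0.60). Psmg1 read 8.19 and 7.43, 1.70-fold higher (log2 0.76). These 2 were above background on both arrays, and the other 2 were below background at 3 h. With both arrays above background, 211 of 5435 named genes were higher. Psmd9 read 7.79 at 24 h and 6.56 at 3 h, which bounds it at 1.65-fold higher or more. Psmg4 read 7.61 and 6.96, and its bound of at least 1.46-fold does not reach 1.5-fold. By role, medians were 0.57 in the core chaperones, 0.47 in the beta ring, 0.40 in the base without ATPases, 0.36 in the ATPases, 0.35 in the base chaperones, 0.31 in the activators, 0.27 in the lid and 0.23 in the alpha ring.

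In Xpa mutant skin the same interval gave a smaller difference, with more genes below 0. The median of 24 h minus 3 h over 41 genes was 0.13, with a range of -0.33 to 0.75, and 0.03 for all genes, and it turned to -0.04 when arrays were centred on the spike-in probes. Of the 41, 29 were above 0 and 12 below (52.9% of all genes were above 0). At 1.5-fold, 3 were higher and 0 lower, against 9.61% and 10.4% of all genes. Psmc6, the ATPase with the smallest difference in WT skin, read 9.44 in Xpa mutant skin at 24 h and 8.69 at 3 h, 1.68-fold higher (log2 0.75). The lid subunit Psmd3 read 9.37 and 8.71, 1.58-fold higher (log2 0.66). Both were above background on both arrays, a filter under which 259 of 5271 named genes were higher. Psmg4 read 7.49 and, below background, 6.84, so its bound of at least 1.30-fold does not reach 1.5-fold. The alpha ring was above 0 in all 7 genes, with a median of 0.14, whereas the lid was split, with 4 above 0 and 4 below. Activators had a median of -0.04, and their lowest was Psme2, with 8.80 in Xpa mutant skin at 24 h and 9.12 at 3 h. Between the same arrays the 6 hair follicle markers had a median of -1.74. The 2 neutrophil markers compared, S100a8 and S100a9, had one of 3.67. Mpo, Elane and Cxcr2 of that list were below background on both arrays and read lower (-0.48, -0.50 and -0.66). The part of either list in these values was not tested.

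The 2 intervals use 4 different arrays, so they can be set side by side for each of the 38 genes above background on all 4. The change from 3 h to 24 h had a median of 0.13 in Xpa mutant skin and 0.33 in WT skin. It was larger in WT skin for 32 of the 38 genes (84.2%), against 50.7% of 4782 named genes. The change in Xpa mutant skin minus that in WT skin had a median of -0.24 and a range of -0.83 to 0.70, against -0.01 for all genes, and -0.69 under spike-in centring. The robust SD of this difference was 0.19 for the proteasome genes and 0.41 for all genes, sets not matched for level. Both changes were above 0 for 26 genes (68.4%), against 30.4% of all genes. Across the 38 genes the 2 changes had a Pearson's r of 0.02 and a Spearman's rho of 0.10 (0.29 and 0.20 across all genes), given as a description. Genes on an array share its preparation and are not independent replicates. The lowest differences were those of Psmg1 (-0.83) and Psmd10 (-0.62), and the highest that of Psmc6 (0.70). Psmd10 read 7.61 in Xpa mutant skin at 24 h and 7.88 at 3 h, while in WT skin it read 7.93 at 24 h and 7.58 at 3 h.

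**Figure D3:**
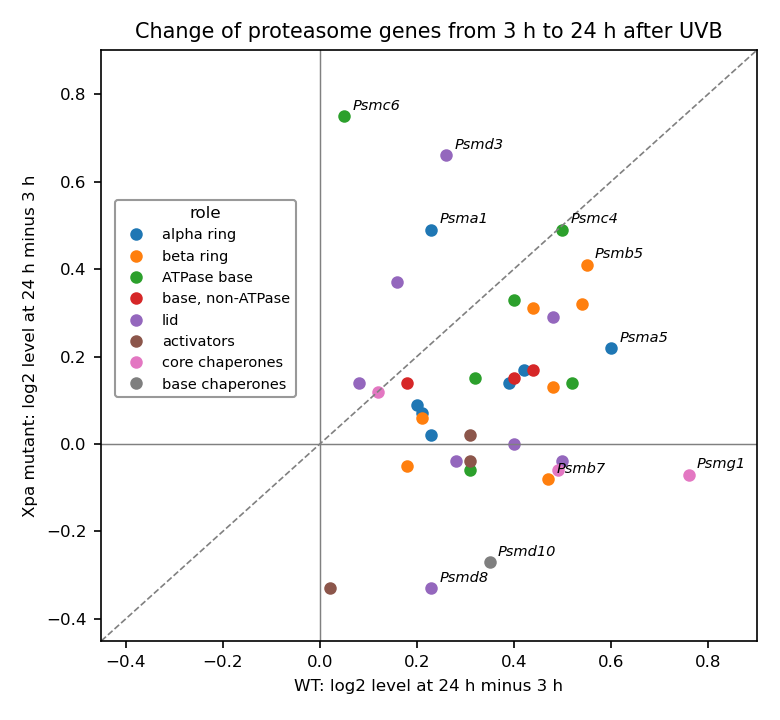
Log2 change from 3 h to 24 h in Xpa mutant skin (vertical axis) against that in WT skin (horizontal axis) for 38 proteasome genes coloured by role, with the dashed line marking equal changes. For 32 of the 38 genes the point lies below the line, and Psmg1 (-0.83) and Psmc6 (0.70) lie farthest from it.

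Between genotypes at 3 h, the median of Xpa mutant minus WT skin over 39 genes was 0.13, with a range of -0.26 to 0.82, and 0.01 for all genes, but centring on the spike-in probes turned it to -0.08. Of the 39, 31 were above 0, 7 below and 1 equal, against 51.7% of all genes above 0. At 1.5-fold, 1 was higher and 0 lower, against 3.95% and 5.09% of all genes. That gene was Psmd9, with 7.38 in Xpa mutant skin and, below background, 6.56 in WT skin. Its bound of at least 1.24-fold does not reach 1.5-fold, and 0 genes were higher once both arrays had to be above background. Under that filter 55 of 5421 named genes were higher. The lid was led by Psmd8, with 9.18 in Xpa mutant skin and 8.80 in WT skin. Psmd10 read 7.88 in Xpa mutant skin and 7.58 in WT skin. Psmd4 read 10.04 in Xpa mutant skin and 9.74 in WT skin. Psmc6 was the lowest, with 8.69 in Xpa mutant skin and 8.95 in WT skin. Hair follicle markers had a median of 1.41 between the same arrays, with all 6 above 0, and their part was not tested.

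Between genotypes at 24 h, the direction was the other one for most genes under the main scaling. Under spike-in centring both genotype medians were below 0 (-0.08 at 3 h and -0.75 at 24 h). Relative to the median of all genes they then stood at 0.13 and -0.14. The 2 genotype comparisons use the same 4 arrays as the 2 intervals, so they are not independent of the difference of changes. The median of Xpa mutant minus WT skin over 41 genes was -0.12, with a range of -0.59 to 0.44, and 0.00 for all genes. Spike-in centring gave -0.75 with 34 genes 1.5-fold lower, and -0.62 for all genes. Of the 41, 11 were above 0 and 30 below, against 49.5% of all genes above 0. At 1.5-fold, 0 were higher and 1 lower, against 6.66% and 8.18% of all genes. All 41 were above background on both arrays, a filter under which 182 of 5528 named genes were higher and 262 lower. Psmg1 read 7.59 in Xpa mutant skin and 8.19 in WT skin, 1.51-fold lower (log2 -0.59). Psmb7 read 9.17 in Xpa mutant skin and 9.63 in WT skin, the lowest of the beta ring. All 4 core chaperones and all 3 activators were below 0, with medians of -0.27 and -0.22. The ATPases were evenly split, with 3 above 0, 3 below and a median of 0.01. Psmc6 was the highest (9.44 in Xpa mutant skin and 9.0 in WT skin), followed by Psmd3 (9.37 and 8.98). The probes of Psmb4 differed in sign, with -0.13 for the brighter and 0.34 for the other. Without an unirradiated Xpa array, the change from the unirradiated state was not analysed in the mutant.

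Genes outside the proteasome gave a scale for these values. In WT skin at 24 h against no UVB, ribosomal protein genes had a median of 0.06 and respiratory chain genes one of -0.06, beside 0.40 for the proteasome genes. In Xpa mutant against WT skin at 24 h these medians were 0.13 and 0.03, beside -0.12. In the same 2 comparisons, 6 immunoproteasome and antigen processing genes had medians of 0.41 and -0.26. The ubiquitin pathway list described next had medians of 0.23 and -0.07. The wider ubiquitin pathway was read from a list of 29 genes on the array, which holds ubiquitin enzymes, shuttle factors and proteasome regulators. In WT skin at 24 h against no UVB, 22 were compared, 17 were above 0, 1 was 1.5-fold higher and 0 were lower, with a median of 0.23. Of all genes 50.2% were above 0, 8.42% higher and 8.77% lower. That gene was Adrm1, a ubiquitin receptor of the cap whose symbol falls outside the pattern used here, and it was 1.73-fold higher (log2 0.79). In WT skin at 3 h against no UVB the list had 2 higher and 1 lower of 22, with a median of 0.12, against 6.58% and 6.35% of all genes. Nfe2l1, the gene of NRF1, was at least 1.90-fold higher and was below background in WT skin without UVB. Sqstm1, an autophagy receptor for ubiquitin-tagged proteins, was 1.62-fold higher (log2 0.70), and Faf1, a cofactor of the segregase Vcp, was lower (log2 -0.59).

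In WT skin at 24 h against 3 h, 0 of 23 genes of the pathway list were higher and 0 lower, against 8.62% and 7.82% of all genes. In Xpa mutant skin at 24 h against 3 h, 1 of 23 was higher and 0 lower, and that gene, Zfand2a, a stress-induced regulator of the proteasome, was below background at 3 h, where its bound of at least 1.33-fold does not reach 1.5-fold. These counts stand against 9.61% and 10.4% of all genes. In Xpa mutant against WT skin at 3 h, 0 of 23 were higher and 1 lower, against 3.95% and 5.09% of all genes. That was Vcp, which extracts ubiquitin-tagged proteins for the proteasome, 1.78-fold lower (log2 -0.83). At 24 h between genotypes, 0 of 23 were higher and 0 lower, against 6.66% and 8.18% of all genes. The immunoproteasome subunit Psmb8, which replaces Psmb5 under interferon, read 7.67 and 7.95 in Xpa mutant skin at 3 h and 24 h, and 7.80, 7.87 and 8.20 in WT skin without UVB, at 3 h and at 24 h. Psmb9, which replaces Psmb6, was above background on 2 of the 5 arrays, both from WT skin. The 1 probe of Psmb10 carries a second gene's symbol and was not used. The list of 6 immunoproteasome and antigen processing genes had medians of 0.42 at 3 h and 0.41 at 24 h against no UVB in WT skin. All genes had medians of -0.03 and 0.00. The 2 immunoproteasome subunits did not share the difference at 3 h, with 0.07 for Psmb8 and -0.19 for Psmb9, which was below background at 3 h. At 24 h they gave 0.40 and 0.17. Tap1, Tapbp and Irf1 of this list were below background in WT skin without UVB.

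**Figure D4:**
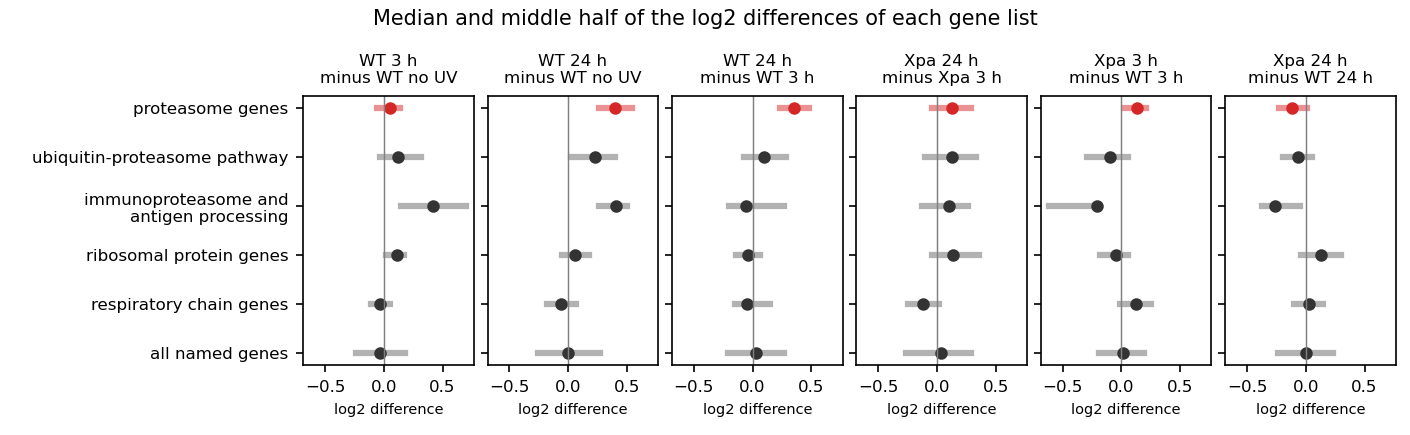
Median (point) and interquartile range (bar) of the log2 differences of the proteasome genes, the wider ubiquitin pathway, the immunoproteasome and antigen processing list, ribosomal protein genes, respiratory chain genes and all named genes in 6 comparisons. In WT skin at 24 h against no UVB the proteasome median is 0.40. The immunoproteasome and antigen processing list is at 0.41 and the ubiquitin pathway at 0.23, with ribosomal and respiratory medians at 0.06 and -0.06.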

How the data were processed

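Back skin RNA extracted with Trizol and labelled with Cy5 was hybridised to 5 one-colour CodeLink arrays, 1 a group, per the labels' protocols. The deposited scanner tables hold spot mean intensity, local background and a quality flag from CodeLink Expression Analysis 5.0.0.31312, per the file headers. A second table deposited by the authors holds normalized intensity (median 46.26 in each column, linear, not centred per gene). The sources used here do not name its software. Scanner intensity was background corrected by normexp with an offset of 50 (limma 3.58.1, R 4.3.3). Of 34967 gene probes, 126 masked and 98 irregular ones were left out, and 34743 were quantile normalized and taken to log2. Probes were named by platform annotation (21471 with 1 symbol, 678 with several) or RefSeq accession (532), and 12062 stayed unnamed. The brightest probe stood for a gene. A probe was above background without the low-signal flag. Where 1 array was below background, a fold is given as "at least", against the higher of the measured value and the lowest value above background on that array (log2 7.01 to 7.11). The genes named in a comparison were taken from the largest and smallest difference of each role and those past 1.5-fold. The 3 largest and smallest ranges over the arrays, the catalytic subunits Psmb5, Psmb6 and Psmb7, and Psmb4, whose probes above background differed, were named too. Further probes below background are described for Psmc4 and not for Psmd11, Psmd12 and Psme1. Psmd14 was added outside these rules. Members, lists and rules were chosen with earlier results of these data known. Calculations used Python 3.11.15 and were tested on simulated data. Alternatives changed background correction, scaling, filter and probe choice. The number of arrays limits the precision.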

Additional observations from a re-analysis of the deposited data

Results flagged for a closer look

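2 genes moved in opposite directions between 3 h and 24 h in the 2 genotypes by more than the spot noise of an array. For Psmd10, a chaperone of the ATPase base, the change in Xpa mutant skin was -0.27 and that in WT skin 0.35, a difference of -0.62 on the log2 scale. For Psmd8, a lid subunit, the change in Xpa mutant skin was -0.33 and that in WT skin 0.23, a difference of -0.56. Each change compares 1 array with 1 array, so the difference was not tested. Across 4782 named genes the difference of changes had a robust SD of 0.41. The share of all genes that meet the same rule was not counted, so the 2 genes are not set apart from other genes. Spot noise is a figure within an array and leaves out variation between arrays.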

How the results depend on the processing

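The medians of the 6 comparisons kept their value within the spot noise in 55 of 60 alternative calculations, moved in 3 and turned in 2, and all 5 exceptions came from centring on the spike-in probes. That scaling gave medians of 0.61 for WT skin at 24 h against no UVB, 0.65 for WT skin at 24 h against 3 h, -0.04 for Xpa mutant skin at 24 h against 3 h, -0.08 for Xpa mutant against WT skin at 3 h and -0.75 at 24 h, and a difference of changes of -0.69. It put the median of all genes in the same comparisons, leaving the last out, at 0.18, 0.31, -0.08, -0.21 and -0.62, and relative to that the proteasome genes stood at 0.42, 0.33, 0.04, 0.13 and -0.14. The share of all 1.5-fold calls that were higher became 75.7% for WT skin at 24 h against no UVB. The spike-in counts of genes 1.5-fold higher were 22 (9 as reported), 25 (4 as reported) and 1 (3 as reported) in the first 3 comparisons, and 34 genes were lower in Xpa mutant skin at 24 h (1 as reported). Without background correction the counts higher were 4, 1 and 1 in these first 3 and 0 for Xpa mutant against WT skin at 3 h, and 0 were lower at 24 h. For WT skin at 24 h against 3 h, the authors' table gave 7, and filters for above background on both or on all 5 arrays gave 2. The same filters gave 0 for Xpa mutant against WT skin at 3 h. With no filter, which lets in genes below background on both arrays, 1 gene (Psme3ip1, no subunit) was higher in WT skin at 3 h against no UVB, 2 in Xpa mutant against WT skin at 3 h, 1 (Psme3ip1) was lower in WT skin at 24 h against 3 h and 2 in Xpa mutant skin at 24 h against 3 h. Fewer genes tested, or genes below background added, account for the filter counts by construction. For the others the cause was not tested. For single named genes, 105 of 150 values stayed within the spot noise, 45 moved and 0 turned. No paired analysis was possible because each group has 1 array, so no array could be left out either.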
